A study of Mus musculus with 2 samples.

Results

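Thyroid hormone reaches the cortex through membrane transporters, is activated there by a deiodinase, and acts through nuclear receptors that bind DNA and change the transcription of target genes. The receptor gene Thra gives rise to a form that binds the hormone, α1, and to spliced forms, α2 and α3, that keep the DNA-binding part and do not bind it. The receptor gene Thrb encodes β1 and β2, which both bind the hormone and differ at their amino-terminal ends.

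The 6 genes described are the receptors Thra and Thrb, the activating enzyme Dio2, the transporter Slco1c1, and the hormone-responsive genes Hr and Klf9. They were taken by symbol from the transcript names, 6 of 55536 annotated genes, with all 30 of their annotated transcripts. Total RNA, 300 ng per library with ERCC spike-ins, depleted of ribosomal RNA and sequenced with strand kept, was prepared from left cerebral cortex, taken at 36 days of age from 2 females of the strain B6CASTF1/J. This strain is the F1 hybrid of C57BL/6J and CAST/EiJ, and its reads were quantified against the C57BL/6J genome, mm10. Each library came from a different mouse, replicate 2 and replicate 1 of 1 group, with no treatment named in the labels, so the values describe 1 tissue in 1 state and no p-value was computed. Expected counts (reads divided among the genes they fit) summed to 35188800 in replicate 2 and 29417200 in replicate 1. Levels are given in TPM, a share of all transcripts corrected for length, and nuclear protein-coding genes took 41.9% of all TPM in replicate 2 and 46.9% in replicate 1. Ratios between the mice were taken from counts scaled by TMM, a scaling that sets the bulk of genes level, and not from TPM.

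The labelled tissue was checked against marker lists. All 5 neuronal, 6 excitatory, 6 inhibitory, 8 astrocyte and 8 endothelial markers had at least 1 TPM in both mice. Of 5 pituitary markers, Tshb, Cga, Gh and Prl had 0 counts in the gene table of both mice, although the second quantification gave Tshb 13.0 counts in replicate 2 and 15.0 in replicate 1. The fifth, Pomc, had 29 counts in replicate 2 and 18 in replicate 1. Of the tanycyte and hypothalamic markers, Rax had 1 count in each mouse, Trh had 25 counts in replicate 2 and 9 in replicate 1, and the whole list summed to 3.41 TPM and 2.62 TPM. Of 4 thyroid gland markers, Tg had 3 counts in each mouse, while Slc5a5 had 4.89 TPM in replicate 2 and 5.43 TPM in replicate 1. Choroid plexus markers other than Ttr summed to 2.78 TPM in replicate 2 and 5.89 TPM in replicate 1.

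The forms of the 2 receptors and of the transporter are told apart by short stretches of transcript, shown here as the joints on which their shares rest. Sequences are from the GENCODE M21 transcripts, mm10, plus strand, 5′ to 3′. In the Thra lines, 30 shared bases that begin at chr11:98764376 are in lower case. The capitals mark the first 30 bases after the point where the forms part.
Thra-202: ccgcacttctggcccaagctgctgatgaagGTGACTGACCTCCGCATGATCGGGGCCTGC
Thra-201: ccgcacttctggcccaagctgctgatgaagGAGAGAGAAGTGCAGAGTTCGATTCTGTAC
Thra-203: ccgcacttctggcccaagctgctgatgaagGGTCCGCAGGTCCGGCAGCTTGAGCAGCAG

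Thra-202 has the coding length of α1, 410 codons, and reads on through the splice site into 706 bases of its own at chr11:98764406-98765111. Thra-201 has the coding length of α2, 492 codons, and splices instead to a last exon at chr11:98768157-98769006. Thra-203 splices into that same exon but lacks its first 117 bases, 39 codons, at chr11:98768157-98768273, the arrangement of α3. It is annotated as an incomplete transcript of 1240 bases.

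**Figure D1:**
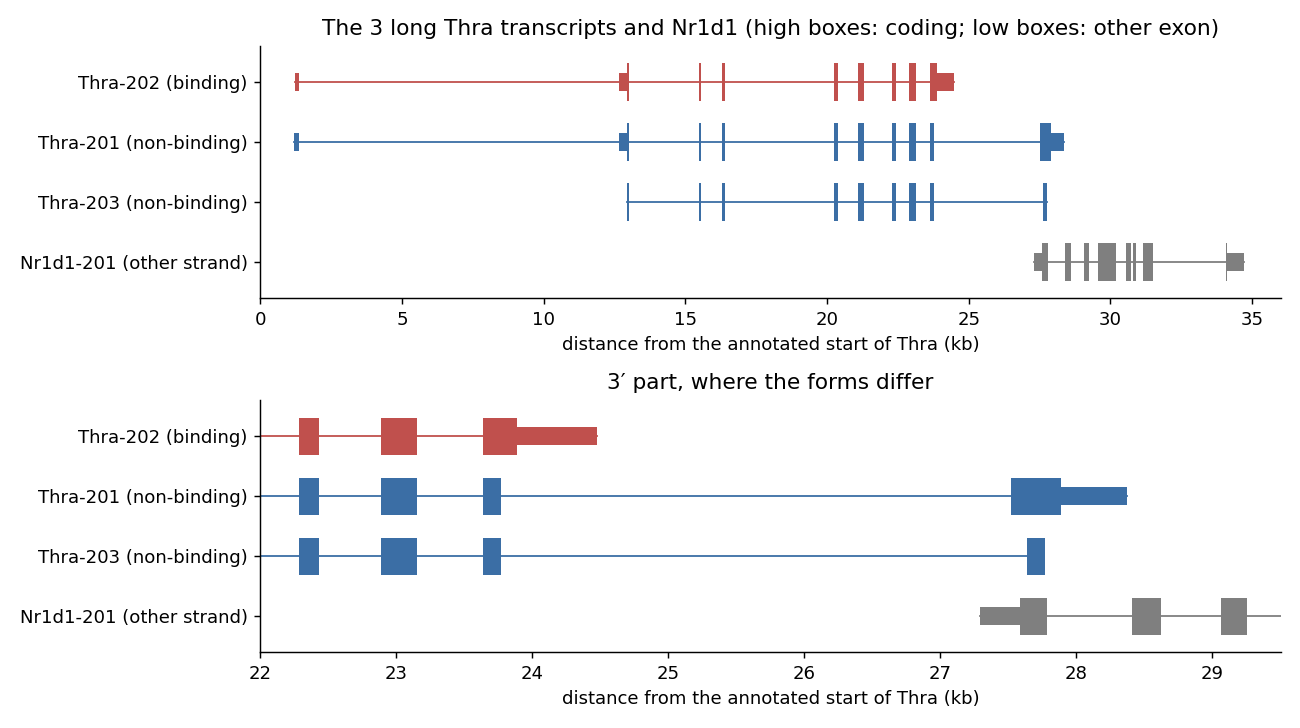
The 3 long Thra transcripts and the neighbouring gene Nr1d1, drawn to scale in kb from the annotated start of Thra, the whole locus above and its 3′ part below. High boxes are coding sequence and low boxes the rest of the exons. Thra-202 (red) ends upstream of the last exon of Thra-201 and Thra-203 (blue), and that last exon overlaps an exon of Nr1d1 (grey) on the other strand.

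In the Thrb lines, the capitals mark the last 30 bases before the first exon that both coding forms share, and the 30 bases in lower case, which end at chr14:18002557, belong to both.
Thrb-201: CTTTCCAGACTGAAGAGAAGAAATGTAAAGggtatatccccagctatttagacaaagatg
Thrb-202: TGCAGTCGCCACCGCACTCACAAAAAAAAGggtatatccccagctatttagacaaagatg

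Thrb-201 has the coding length of β1, 461 codons, as has Thrb-203. Thrb-202 has that of β2, 475 codons, and starts in an exon of its own at chr14:17981529-17982201.

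In the Slco1c1 lines, which begin at chr6:141555158, the capitals of Slco1c1-201 mark 41 bases at chr6:141559741-141559781 that Slco1c1-202 lacks. The capitals of Slco1c1-202 mark the stop codon annotated where its frame has shifted.
Slco1c1-201: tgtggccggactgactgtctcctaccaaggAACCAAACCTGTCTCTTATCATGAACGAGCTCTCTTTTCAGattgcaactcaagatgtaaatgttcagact
Slco1c1-202: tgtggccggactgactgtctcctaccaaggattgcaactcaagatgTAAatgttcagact

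Slco1c1-201 encodes 715 codons. Slco1c1-202 stops after 469 and is annotated as a target of nonsense-mediated decay, which removes messages with an early stop codon.

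All 6 genes were transcribed in both cortices, and they spanned an order of levels with Thra at its head. Thra had 316 TPM in replicate 2 and 298 TPM in replicate 1, a mean of 307 ± 12.9 TPM (SD, n = 2, as for all means here). It ranked 148 among 12754 expressed nuclear protein-coding genes (at least 1 TPM in both mice), above 98.8% of them. Klf9 followed with 84.9 TPM in replicate 2 and 103.6 TPM in replicate 1, rank 948. Thra lay above Klf9, and Klf9 above the other 4 genes, in both mice and in both of the authors' quantifications.

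The other 4 genes lay close together, at ranks 3219 for Thrb, 3278 for Dio2, 4292 for Slco1c1 and 4346 for Hr. Thrb averaged 34.3 ± 10.2 TPM and Dio2 33.7 ± 7.09 TPM, and their order turned round between the mice. Slco1c1 averaged 25.5 ± 1.12 TPM and Hr 25.2 ± 3.28 TPM, and their order turned round too. Neither pair of neighbours differed beyond the spread between the mice, while Thrb and Dio2 were each above Slco1c1 and Hr in either mouse. Short transcripts with few reads entered that order. Thrb-201, Thrb-202 and Thrb-203 together had 22.0 TPM in replicate 2, below Slco1c1 and Hr, and 30.6 TPM in replicate 1. Hr-202 and Hr-204 held 5.48 TPM of Hr on 31.3 counts in replicate 2 and 4.56 TPM on 19.2 counts in replicate 1. Hr stood above Slco1c1 only in replicate 1, at 27.5 against 26.3 TPM. In the second quantification the order of whole genes was Thrb, Dio2, Slco1c1, Hr in both mice. There Thrb-201, Thrb-202 and Thrb-203 together had 35.55 TPM in replicate 2 and 45.03 TPM in replicate 1. Both values lay below those of Dio2, 44.1 and 53.3 TPM, so Thrb led only with its short transcripts included.

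**Figure D2:**
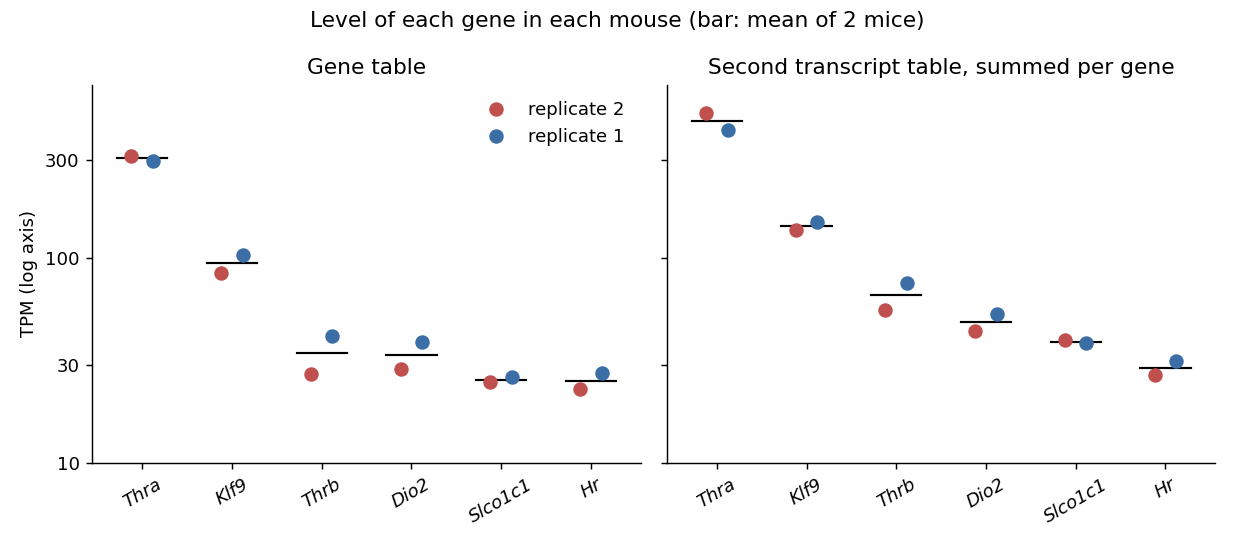
Level of each gene in TPM on a log axis, replicate 2 in red and replicate 1 in blue, with a bar at the mean of the 2 mice; the gene table is on the left and the sum over transcripts in the second transcript table on the right. Thra and Klf9 lie apart from the rest in both panels, and in the left one Thrb overlaps Dio2, and Slco1c1 overlaps Hr.

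Between the mice, none of the 6 genes was 1.5-fold apart under TMM scaling. Of the 12615 annotated genes that averaged 100 counts or more, 3.08% were at least 1.5-fold apart and 0.713% at least 2-fold apart, so 0 of 6 is near the background. Under TMM scaling Thra and Slco1c1 were higher in replicate 2 and the other 4 lower. The median log2 ratio was 0.02 over the 18187 annotated genes that averaged at least 10 counts. Of these genes, 9740 were higher and 8447 lower in replicate 2. That set is meant wherever a median of all genes is given. When counts were scaled by the spike-ins instead, the median of all genes moved to −0.44 and all 6 ratios were below 0. Thrb at −0.72, Dio2 at −0.66 and Hr at −0.62 were then more than 1.5-fold apart. Of the 12615 genes, 2.43% were at least 2-fold apart under spike-in scaling. The share at 1.5-fold was not computed, so Thrb, Dio2 and Hr have no background there. Directions and fold sizes given below are those under TMM scaling. With spike-in scaling the medians of the 5 pathway lists also lay below 0, between −0.57 and −0.35. Each mouse is a single library, so a difference between mice and one between library preparations cannot be told apart.

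**Figure D3:**
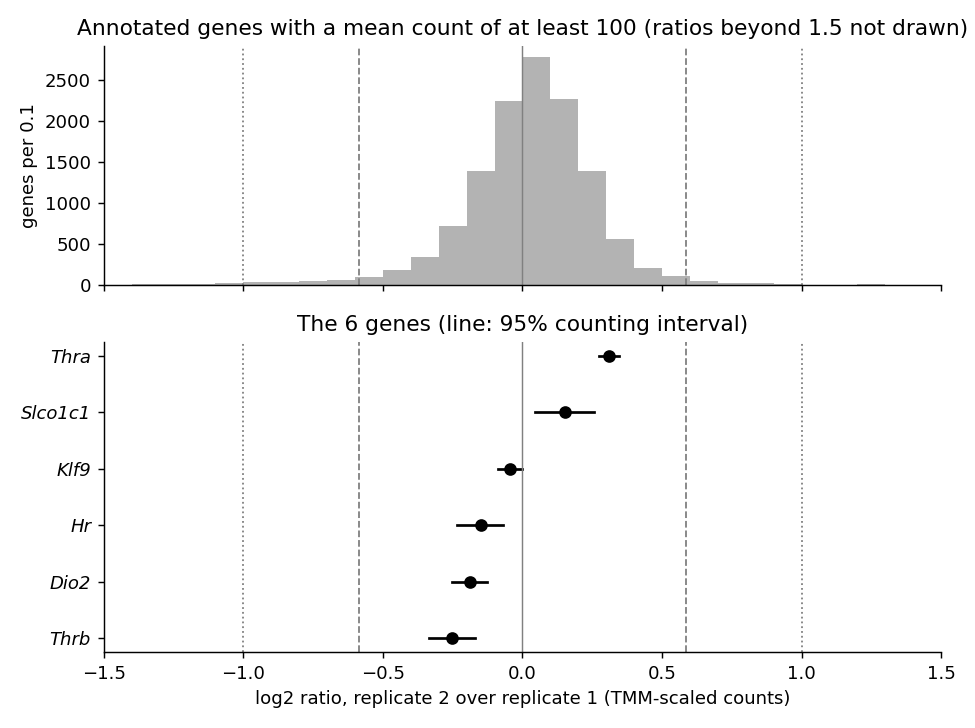
Log2 ratio of replicate 2 over replicate 1 from TMM-scaled counts. The upper panel counts annotated genes per bin of 0.1 and the lower panel shows the 6 genes with 95% counting intervals; dashed lines mark 1.5-fold and dotted lines 2-fold. All 6 genes lie inside the dashed lines, with Thra highest at 0.31 and Thrb lowest at −0.25. Under spike-in scaling, not drawn, the median of all genes lies at −0.44 and all 6 genes lie below 0. Thrb, Dio2 and Hr then lie beyond 1.5-fold, a limit for which the share of all genes was not computed.

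Hormone uptake was represented first by Slco1c1, which encodes OATP1C1, a carrier of thyroxine found in rodents at the blood-brain barrier and in astrocytes (ENSMUSG00000030235.17, chr6:141524368-141570177, plus strand). It had 1618 counts and 24.7 TPM in replicate 2, and 1275 counts and 26.3 TPM in replicate 1. Its log2 ratio was 0.15, with a 95% counting interval of 0.04 to 0.26. TPM was lower and the scaled count higher in replicate 2, the library in which coding genes took the smaller share of TPM.

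Most of the Slco1c1 signal was assigned to the transcript with the early stop. Slco1c1-202 had 15.3 TPM in replicate 2 and 16.1 TPM in replicate 1, which was 61.9% and 61.2% of the gene, and 65.6% on average in the second quantification. The coding transcripts Slco1c1-201, Slco1c1-203 and Slco1c1-206 together took 30.2% in replicate 2 and 27.5% in replicate 1, and less in the second quantification, 19.0% and 14.1%. Of these, Slco1c1-203 had 0 counts in both mice. Slco1c1-206 took 18.3% in replicate 2 and 14.2% in replicate 1, and Slco1c1-201 took 11.9% and 13.4%.

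A leading transcript that is not annotated as protein-coding was found for 1 of the 5 genes with several transcripts, Slco1c1, against 7.59% of 11552 expressed coding genes with several transcripts. Slco1c1-202 carries no base that another transcript lacks; what sets it apart is the joint shown above, and the tables do not give reads per joint.

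Of 10 genes for transport and binding, 9 were detected, each with at least 1 TPM in both mice, and Slc17a4 had 0 counts. Slc3a2, the heavy chain that pairs with the amino acid carriers Slc7a5 and Slc7a8, had the highest mean, 70.2 TPM in both mice. Slc16a10, which encodes the carrier MCT10, had the lowest mean of those detected, with 1.24 TPM in replicate 2 and 1.98 TPM in replicate 1. The median log2 ratio of the 9 genes was 0.11, with 7 higher and 2 lower in replicate 2, relative to 0.02 over all genes.

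Ttr, which encodes the thyroxine carrier of cerebrospinal fluid, was the 1 gene of these 9 at least 1.5-fold apart. It had 8.29 TPM in replicate 2 and 70.1 TPM in replicate 1, a log2 ratio of −2.82. It is itself a choroid plexus marker, and the other 5 markers of that list summed to 2.78 TPM in replicate 2 and 5.89 TPM in replicate 1. Of the 6 markers, the 4 that averaged at least 10 counts, Ttr included, were lower in replicate 2, 3 of them by at least 1.5-fold, with a median of −1.32. Kl, the only other marker that averaged 100 counts or more, had 143 counts in replicate 2 and 166 in replicate 1, a log2 ratio of −0.40. Kcnj13 had 25 counts in replicate 2 and 48 in replicate 1, and Clic6 had 21 and 58. Folr1 had 5 counts in replicate 2 and 11 in replicate 1, and Otx2 had 8 and 4. The part of choroid plexus RNA in the Ttr value was not tested.

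Dio2 encodes the deiodinase that turns thyroxine into triiodothyronine, and in rodent brain it is known from astrocytes and tanycytes (ENSMUSG00000007682.6, chr12:90724552-90738438, minus strand). It had 4153 counts and 28.7 TPM in replicate 2, and 4142 counts and 38.8 TPM in replicate 1. Its log2 ratio was −0.19, with a counting interval of −0.25 to −0.13. It has 1 annotated transcript, of 5815 bases, so no share among forms arises.

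Dio2 was by far the most abundant deiodinase message. Dio3, which encodes the inactivating enzyme, had 36 counts and 0.74 TPM in replicate 2, and 19 counts and 0.53 TPM in replicate 1. Dio2 was 38.8 times Dio3 per length in replicate 2 and 73.1 times in replicate 1, and the few Dio3 counts limit how well that ratio is known. Dio1 had 0 counts in both libraries, which allows up to 3 counts, or a share of 8.53e-06% in replicate 2 and 1.02e-05% in replicate 1.

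Markers of cell types known for Slco1c1 and Dio2 stood as follows. The 8 astrocyte markers summed to 1080 TPM in replicate 2 and 1320 TPM in replicate 1. Most of that sum was Slc1a2, with 706 TPM in replicate 2, 905 TPM in replicate 1 and a log2 ratio of −0.11. From scaled counts, 6 of the 8 were higher and 2 lower in replicate 2, with a median log2 ratio of 0.13. The 8 endothelial markers summed to 100.7 TPM in replicate 2 and 122.7 TPM in replicate 1, with a median of 0.01. Of the tanycyte and hypothalamic list, the 3 genes that averaged at least 10 counts were the hypothalamic markers Pomc, Trh and Avp. They were all higher in replicate 2, with a median of 0.52 on few counts. Rax, the tanycyte marker of the list, had 1 count in each mouse, so these values do not measure tanycytes. The part of these cell types in the Slco1c1 and Dio2 values was not tested. In tissue RNA, fewer cells of a type and less RNA per cell cannot be told apart.

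Thra (ENSMUSG00000058756.13, chr11:98740638-98769006, plus strand) had 15665 counts in replicate 2 and 11057 in replicate 1, a log2 ratio of 0.31 with a counting interval of 0.28 to 0.35. This was a fold of 1.24, and the highest of the 6 genes. Nr1d1, which encodes a haem-binding nuclear receptor of the circadian clock and overlaps Thra at its 3′ end on the other strand, had a log2 ratio of 0.21, with 57.3 TPM in replicate 2 and 60.2 TPM in replicate 1.

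Most Thra RNA was in the forms that do not bind hormone. Thra-201, the α2 form, had 192 TPM in replicate 2 and 178 TPM in replicate 1, or 60.7% and 59.9% of the gene. Thra-203, the α3-like form, had 72.8 TPM in replicate 2 and 59.6 TPM in replicate 1, or 23.0% and 20.0%. Thra-202, the hormone-binding α1 form, had 36.6 TPM in replicate 2 and 44.1 TPM in replicate 1, or 11.6% and 14.8%. Thra-201 led in both mice and both tables. Thra-203 lay above Thra-202 in both mice here, but in the second table only in replicate 2, where Thra-203 took 15.1% and Thra-202 12.2%, while in replicate 1 Thra-203 took 11.9% and Thra-202 15.7%. By counts, too, Thra-203 was the higher only in replicate 2. The other 6 transcripts together took 4.70% in replicate 2 and 5.28% in replicate 1.

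The non-binding forms thus made up 81.8 ± 2.70% of Thra and the hormone-binding form 13.2 ± 2.29%. In the second quantification these means were 77.0% and 13.9%. By TPM there were 5.24 copies of Thra-201 for each of Thra-202 in replicate 2 and 4.04 in replicate 1, and 7.22 and 5.39 once Thra-203 was added. The second quantification gave 5.17 and 4.09 for Thra-201 alone.

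The higher Thra count of replicate 2 was not shared evenly by its forms. The log2 ratio was 0.35 for Thra-201 and 0.53 for Thra-203, against −0.03 for Thra-202, with 1987 counts of Thra-202 in replicate 2 and 1772 in replicate 1. Those of Thra-201 numbered 11405 in replicate 2 and 7842 in replicate 1. These are single libraries, and whether the forms differ beyond the variation among mice was not tested.

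Part of what separates the forms lies under Nr1d1. Of the 850 bases of the last exon of Thra-201, 263, at chr11:98768157-98768419, are also exon of Nr1d1 on the other strand, and so are all 130 bases of the last exon of Thra-203. The libraries kept strand, but the strand setting of the counting is not given in the sources used here, so the share of Nr1d1 reads in Thra-201 and Thra-203 was not tested. The 706 bases that belong to Thra-202 alone hold no Nr1d1 exon. Thra-203 has no base that another Thra transcript lacks, and its share was 23.0% in replicate 2 and 20.0% in replicate 1 in the first table, against 15.1% in replicate 2 and 11.9% in replicate 1 in the second.

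**Figure D4:**
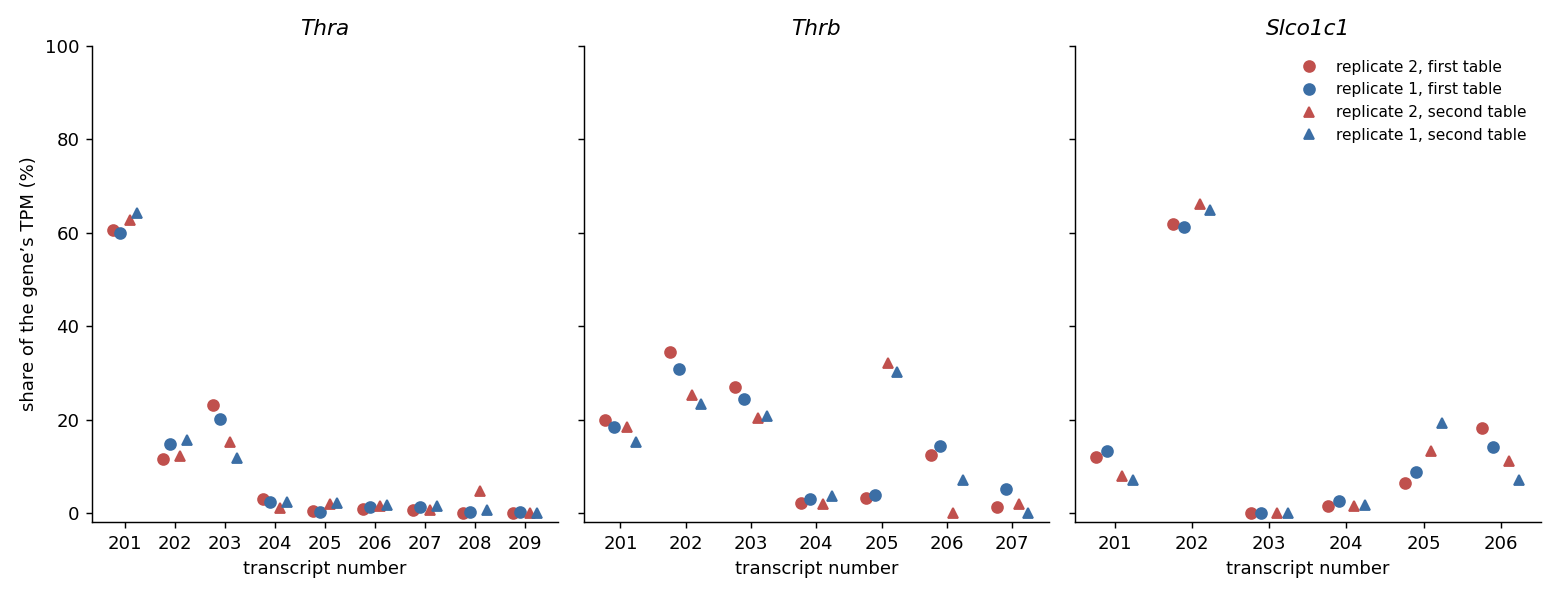
Share of each annotated transcript in its gene's TPM for Thra, Thrb and Slco1c1, with replicate 2 in red, replicate 1 in blue, circles for the first transcript table and triangles for the second. Thra-201 and Slco1c1-202 lead in every mouse and table, while the leading Thrb transcript is Thrb-202 in the first table and Thrb-205 in the second. Thrb-205 is a transcript of 375 bases with 29 codons. In the second table it had 30.9 counts in replicate 2 and 33.2 in replicate 1, against 1529 and 1601 for Thrb-202.

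Thrb (ENSMUSG00000021779.17, chr14:17660261-18038090, plus strand) had 2394 counts in replicate 2 and 2496 in replicate 1, a log2 ratio of −0.25 with a counting interval of −0.33 to −0.17. It had 27.1 TPM in replicate 2 and 41.6 TPM in replicate 1, the widest gap of the 6 genes as a ratio of TPM. Of this, 4 short transcripts held 5.11 TPM on 45.4 counts in replicate 2 and 10.9 TPM on 82.4 counts in replicate 1. The largest of them, Thrb-206 of 426 bases, took 12.3% of the gene in replicate 2 and 14.3% in replicate 1. It rested on 27.6 counts in replicate 2 and 36.3 in replicate 1. The 3 transcripts with a full coding sequence held 22.0 TPM in replicate 2 and 30.6 TPM in replicate 1.

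The β1 coding forms and the β2 coding form were both called. Thrb-201 and Thrb-203, with the β1 coding sequence, took 46.7% of the gene in replicate 2 and 42.8% in replicate 1. Thrb-202, with the β2 coding sequence, had 9.33 TPM in replicate 2 and 12.8 TPM in replicate 1, or 34.4% and 30.9%. In rodents β2 is known mainly from pituitary, hypothalamus, retina and inner ear.

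The share of Thrb-202 differed more between ways of measuring it than between the mice. It averaged 32.6% of TPM in the first table, 24.2% in the second, and 59.4% of expected counts, which are not corrected for its length of 6200 bases. Of its 2204 bases found in no other Thrb transcript, 673 form its first exon and 1531, at chr14:18036560-18038090, extend its 3′ end past that of Thrb-201. The first exon holds the start of the β2 coding sequence and the 3′ stretch holds none of it. The tables do not say how many reads came from each stretch, so the Thrb-202 values cannot be read as β2 alone.

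Thra exceeded Thrb 11.7-fold per length in replicate 2 and 7.17-fold in replicate 1, and 9.19-fold and 5.54-fold in the second quantification. For the hormone-binding forms the gap was far smaller. Thra-202 was 1.66 times Thrb-201, Thrb-202 and Thrb-203 together in replicate 2 and 1.44 times in replicate 1, with 1.74 and 1.47 in the second quantification. By counts, uncorrected for length, it was 0.846 times in replicate 2 and 0.734 times in replicate 1, so the order of α1 and β rests on the length correction.

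Over both genes, the hormone-binding transcripts took 17.1% of receptor TPM in replicate 2 and 22.0% in replicate 1. By TPM the non-binding Thra forms outnumbered all hormone-binding receptor transcripts 4.51-fold in replicate 2 and 3.18-fold in replicate 1. The second quantification gave 4.08 and 2.88, and counts, uncorrected for length, gave 3.1 and 2.2.

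The leading transcript did not differ between the mice for any of the 5 genes with several transcripts, against 11.6% of 11552 genes that did. It differed between the 2 quantifications for 1 of 5, Thrb, against 23.3% of genes. With 5 genes these counts are near the background. The share of the leading transcript moved by 0.81 percentage points between the mice for Thra-201, 3.54 for Thrb-202, 0.69 for Slco1c1-202, 6.22 for Hr-201 and 0.08 for Klf9-201. Over all 11552 genes the median was 4.83 points, and only Hr-201 of the 5 lay above it.

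The proteins that work with the receptors were all transcribed. The retinoid X receptors are their DNA-binding partners. Rxrb had 33.2 TPM in replicate 2 and 40.3 TPM in replicate 1, Rxra had 7.98 and 9.80 TPM, and Rxrg had 3.66 and 2.92 TPM. Rxrb led in both mice, and Rxrg was the lowest of the 15 partners and coregulators.

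Ncor1, a corepressor held by the receptor without hormone, was the highest, with 96.0 TPM in replicate 2 and 127.6 TPM in replicate 1. Of the 15 genes, 7 were higher and 8 lower in replicate 2, with a median log2 ratio of −0.00. Rxrg was the 1 gene of 15 at least 1.5-fold apart, with 176 counts in replicate 2 and 102 in replicate 1 and a log2 ratio of 0.59, with a counting interval of 0.23 to 0.96.

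Among the targets, Hr encodes hairless, a corepressor of the thyroid hormone receptor whose gene is itself raised by the hormone in rodent brain (ENSMUSG00000022096.14, chr14:70552212-70573548, plus strand). It had 2400 counts and 22.9 TPM in replicate 2, and 2331 counts and 27.5 TPM in replicate 1. Its log2 ratio was −0.15, with a counting interval of −0.23 to −0.07. Hr-201 took 72.8% of its TPM in replicate 2 and 79.0% in replicate 1.

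Hr-202, a noncoding transcript of 321 bases, took 18.4% in replicate 2 and 13.3% in replicate 1 in the first table, on 23.7 and 15.2 counts, and 0 in the second. By counts Hr-201 took 94.2% on average. Short transcripts with few reads thus took a larger share of TPM than of counts.

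Klf9 encodes a zinc finger transcription factor that thyroid hormone and glucocorticoids raise in rodent neurons (ENSMUSG00000033863.2, chr19:23141226-23168134, plus strand). It had 9276 counts in replicate 2 and 8366 in replicate 1, a log2 ratio of −0.04 with a counting interval of −0.09 to −0.00. Klf9-201 took 98.0% of the gene in each mouse, and 88.9% in replicate 2 and 90.4% in replicate 1 in the second quantification. Klf9 was the member nearest to the median of all genes, and it stood at 3.71 times Hr in replicate 2 and 3.76 times in replicate 1.

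Within its family of 17 Krüppel-like factor genes, Klf9 had the highest TPM in both mice. Klf13 came next, with 68.1 TPM in replicate 2 and 76.1 TPM in replicate 1, so that Klf9 was 1.25 and 1.36 times Klf13. By counts the 2 genes were level, at 0.99 and 1.00 times, so their order rests on length. Klf17 had 0 counts and Klf1 had 1 count in replicate 2 and 0 in replicate 1. Klf2, a factor known from endothelial cells, was the 1 gene 1.5-fold apart among the 14 that averaged 100 counts or more, with 398 counts in replicate 2 and 199 in replicate 1 and a log2 ratio of 0.80. Of the 15 family members that averaged at least 10 counts, 10 were higher and 5 lower in replicate 2, with a median of 0.07. Single genes 1.5-fold apart in lists of this size are too few to set against the 3.08% of all genes.

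Of 15 genes described as raised by thyroid hormone in rodent brain, Hr and Klf9 among them, 4 were higher and 11 lower in replicate 2. Over all 18187 genes that averaged at least 10 counts, 9740 were higher and 8447 lower. The median log2 ratio of the 15 genes was −0.11, beside 0.02 over all genes. In the second quantification it was −0.06, beside 0.04 over all genes. Nrgn, which encodes the calmodulin-binding neurogranin of excitatory neurons, was the highest, with 1023 TPM in replicate 2 and 1098 TPM in replicate 1. None of the 12 that averaged 100 counts or more was 1.5-fold apart. Dbp, a clock output gene, came closest with a log2 ratio of 0.56, from 2221 counts in replicate 2 and 1319 in replicate 1.

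Only Cbr2 and Itga10 of that list passed 1.5-fold, on few counts, both lower in replicate 2. Cbr2 had 3 counts in replicate 2 and 20 in replicate 1, the lowest mean count of the 15, and Itga10, the lowest by TPM, had 51.8 and 84.4 counts. The myelin gene Mbp had a log2 ratio of −0.12 and is also 1 of the 5 oligodendrocyte markers. Those markers summed to 1485 TPM in replicate 2 and 1990 TPM in replicate 1. From scaled counts, 1 of them was higher and 4 lower in replicate 2, with a median log2 ratio of −0.12. The part of oligodendrocyte RNA in the median of the 15 genes was not tested.

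Of 6 genes described as lowered by the hormone, 5 had a mean count of at least 10, of which 3 were higher and 2 lower in replicate 2, with a median of 0.09. In the second quantification that median was −0.04, below 0 like that of the raised genes. Dgkg, a diacylglycerol kinase, was the highest, with 18.8 TPM in replicate 2 and 18.9 TPM in replicate 1, and Odf4 the lowest, with 5 and 7 counts. Aldh1a3, an enzyme of retinoic acid synthesis, had 45 counts in replicate 2 and 61 in replicate 1, a log2 ratio of −0.61 on few counts.

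**Figure D5:**
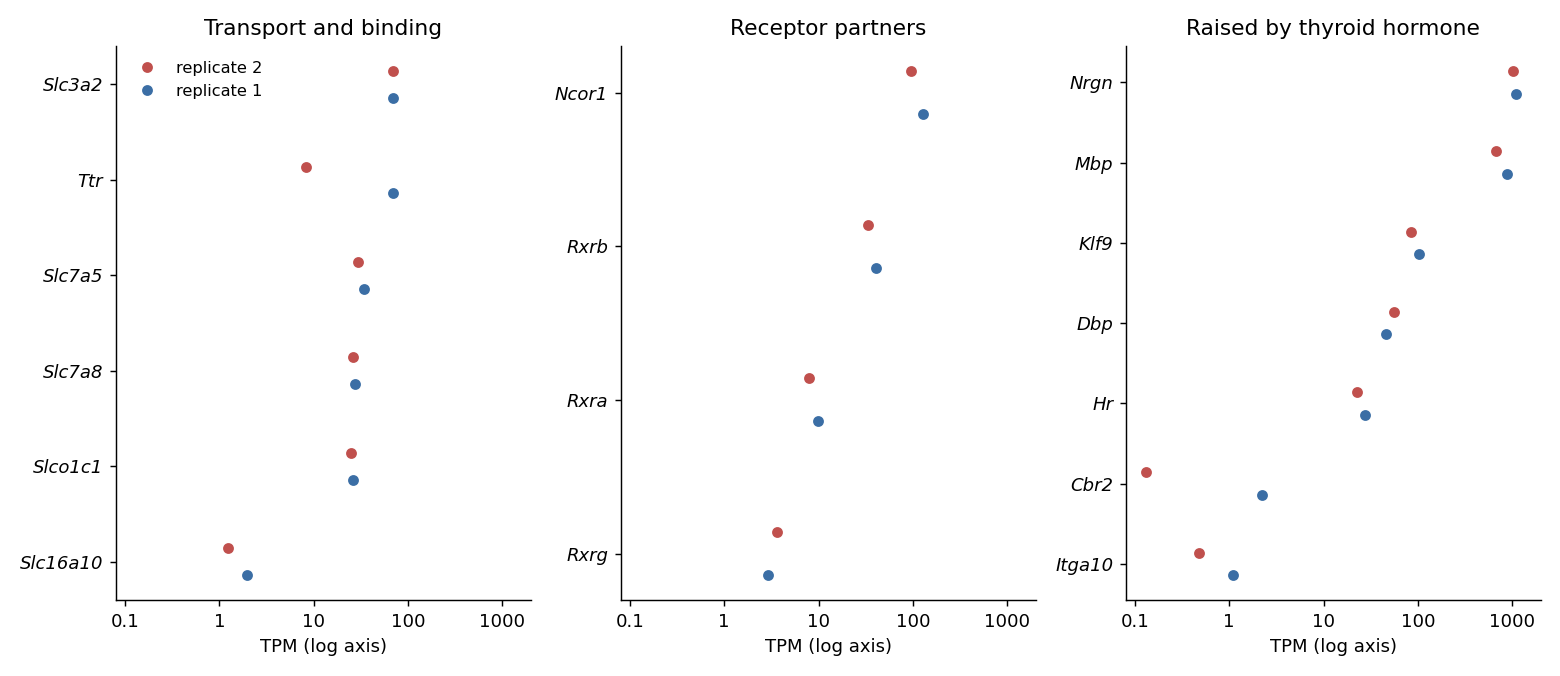
TPM of genes named in the text on a log axis, replicate 2 in red above replicate 1 in blue, for transport and binding genes, receptor partners, and genes described as raised by thyroid hormone; Slc17a4, with 0 counts, is not drawn. The points of a gene lie close together except for Ttr at 8.29 and 70.1 TPM and for Cbr2 and Itga10 at the low end.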

How the data were processed

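Each library came with a gene table and 2 transcript tables, quantified by the authors on the mm10 build (per the labels) with the GENCODE M21 annotation (per the deposited notes). For the aligner, its version and the strand setting, a statement was not given in the sources used here. Per the file headers, the deposited gene table and first transcript table hold expected counts, TPM and FPKM, and the first transcript table also each transcript's percent of its gene. Per the file headers, a second quantifier of the authors gave estimated counts and TPM of transcripts. FPKM and the authors' percent were not used, and shares were computed from TPM. Bounds deposited beside TPM have no stated level and were not used.

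Expected counts of annotated genes, rounded to whole numbers, were scaled by TMM (edgeR 4.0.16, R 4.3.3) with a prior count of 2. DESeq2 1.42.0 size factors were an alternative, as were spike-in and total count scaling. Intervals are exact 95% Clopper-Pearson and, like the limit of 3 counts for 0, cover counting error only. The gene table lists 55536 annotated genes among 81881 rows, with 26248 rows named by number, left out here, and 96 spike-ins; the spike-ins took 0.461% of counts in replicate 2 and 0.350% in replicate 1. The steps were tested on simulated counts. Python 3.11.15, numpy 2.4.6, pandas 2.3.3, scipy 1.17.1 and matplotlib 3.10.9 were used.

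The members and the gene lists were chosen with earlier results of these data known. Named by rule were the 6 genes, their transcripts of at least 10% of a gene, and in each list the highest, the lowest and any gene 1.5-fold apart; genes that a result turned on were named beside them, after their values were seen. Receptor forms were identified by annotated coding length, except Thra-203, annotated as incomplete, which was identified by its exon structure. Loss of reads from the CAST/EiJ allele was not tested. Some genes of the lists are not reported here by name, although the counts and medians of the lists include them.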

Additional observations from a re-analysis of the deposited data

How the results depend on the processing

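Levels depended on the denominator of TPM and on the quantifier. Mean TPM over nuclear protein-coding genes alone was 695 for Thra, 76.7 for Thrb, 75.6 for Dio2, 57.6 for Slco1c1, 56.6 for Hr and 211.9 for Klf9. The second transcript table gave 465 for Thra, 65.7 for Thrb, 48.7 for Dio2, 39.0 for Slco1c1, 29.1 for Hr and 143.7 for Klf9. Spike-in scaling put the log2 ratio at −0.16 for Thra, −0.72 for Thrb, −0.66 for Dio2, −0.32 for Slco1c1, −0.62 for Hr and −0.51 for Klf9, which turned the direction of Thra and Slco1c1. Total count scaling gave 0.25 for Thra, −0.25 for Dio2 and −0.11 for Klf9, while counts of the second quantifier gave 0.36 for Thra. Genes 2-fold apart numbered 90, against 734 with a mean count of at least 10, 2422 with no filter, 306 under spike-in scaling and 389 at 1.5-fold. The share of Thra-201 with Thra-203 was 77.0% in the second table and 86.0% over coding transcripts only, that of Thrb-202 was 24.2% in the second table and 59.4% of counts, and that of Slco1c1-202 was 65.6% in the second table. In the second table the mean share of Hr-201 was 80.6%, against 75.9% in the first, and that of Klf9-201 was 89.7%, against 98.0%. The cause of these shifts was not tested. DESeq2 size factors and a prior count of 0.5 moved no ratio beyond its counting interval. Leaving out 1 of 2 mice gives the other mouse's own value, which lies within 1 SD of the mean by construction and so says nothing about stability. No paired analysis was possible because both libraries belong to 1 group.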
